A study of Mus musculus with 15 samples.

Results

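Epithelial cells are held to each other by adherens and tight junctions, and the genes described here are 7 that build them: Cdh1, Epcam, Cldn3, Cldn4, Cldn7, Cldn18 and Ocln. The members were chosen by symbol, the values of the transcripts listed under a symbol were summed, and 7 of 7 were found among 10222 gene symbols. RNA from 5 populations sorted from C57BL/6 Il33-citrine reporter mice, in which the fluorescent protein citrine is expressed from an Il33 allele, had been sequenced from 3 libraries each, giving 15 libraries. Lung epithelial cells were sorted ex vivo as CD45-EpCAM+ and the endothelial cells of white adipose tissue (WAT) as CD45-CD31+. Mesenchymal stromal cells (MSC) lacked CD45, EpCAM and CD31 and carried PDGFRα and CD34 (in WAT also Sca1 and podoplanin, without CD24), and were taken by citrine as lung Il33+ MSC, Il33+ WAT-MSC and Il33- WAT-MSC, the WAT-MSC being titled mesenteric. No treatment, age or pooling of mice is named for these cells, and every group came from the reporter strain. In a plot of the study the epithelial cells are named as from WAT, whereas the labels give lung, which is used here. The question put to these genes is which of the populations express them, and how far apart the epithelium lay from stroma and endothelium.

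E-cadherin, encoded by Cdh1, binds the E-cadherin of the next cell and is tied to actin through catenins. Claudins seal or open the tight junction to particular ions, occludin runs beside them in the same strands, and EpCAM binds claudin-7 at the lateral membrane. In the lung these proteins keep the airway and alveolar lining closed, claudin-18 being best known from alveolar epithelium, and factors of the SNAI, ZEB and TWIST families are known to repress Cdh1 and its companions in mesenchymal cells.

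On the GRCm38.p6 assembly (the mm10 build of the deposited values), Cdh1 lies at chr8:106603350-106670247, Epcam at chr17:87635979-87651127, Cldn7 at chr11:69964779-69967886, Cldn18 at chr9:99690796-99717267 and Ocln at chr13:100496504-100552718. Cldn3 at chr5:134986214-134987476 and Cldn4 at chr5:134945123-134946934 are neighbours on opposite strands, 39279 bases apart with 0 annotated genes between them, and the transcript listed for each has 1 exon. Promoter sequences for 6 of the 7 genes, all but Cdh1, were read from RefSeq, 9 promoters in all. The letters CAGGTG, or CACCTG on the other strand, are the E-box bound by SNAI and ZEB factors, and stood in 6 of these 9 promoters and in 5 of the 6 genes (Epcam, Cldn3, Cldn4, Cldn7 and Ocln). Those of Cldn7 lay only at a start other than that of its listed transcript, and the overlapping promoters of Ocln share a match. The same letters stood in 20.2% of all 32851 promoters of 300 bases (250 before and 50 after a start) in that table. TGTTTAC (FOXA factors), AACCGGTT (GRHL factors) and TATAAA (the TATA box), searched on both strands, stood in 0 of the 9 and in 3.65%, 0.146% and 13.6% of all promoters. A match describes letters and not a bound site, and a missing one says only that the letters are not in the window. Whether the letters play a part in the levels of these genes was not tested. The first set below is shown as examples of promoters that hold the E-box letters. It gives 250 bases before the start and the first 20 bases from it, 5′ to 3′ on the gene's strand, with the E-box in capitals, for Epcam (chr17:87635729-87635998, + strand), Cldn4 (chr5:134946915-134947184, - strand) and the upstream start of Ocln (chr13:100552699-100552968, - strand).
Epcam: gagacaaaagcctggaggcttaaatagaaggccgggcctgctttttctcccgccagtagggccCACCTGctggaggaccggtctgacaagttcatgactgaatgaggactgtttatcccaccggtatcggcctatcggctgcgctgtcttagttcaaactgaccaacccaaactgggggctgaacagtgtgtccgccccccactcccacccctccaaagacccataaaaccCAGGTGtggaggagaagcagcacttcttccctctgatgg
Cldn4: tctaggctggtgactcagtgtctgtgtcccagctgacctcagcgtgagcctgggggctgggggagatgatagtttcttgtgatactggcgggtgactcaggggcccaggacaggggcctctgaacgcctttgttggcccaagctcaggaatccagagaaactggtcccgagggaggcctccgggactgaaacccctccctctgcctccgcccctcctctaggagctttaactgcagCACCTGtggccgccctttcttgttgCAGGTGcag
Ocln: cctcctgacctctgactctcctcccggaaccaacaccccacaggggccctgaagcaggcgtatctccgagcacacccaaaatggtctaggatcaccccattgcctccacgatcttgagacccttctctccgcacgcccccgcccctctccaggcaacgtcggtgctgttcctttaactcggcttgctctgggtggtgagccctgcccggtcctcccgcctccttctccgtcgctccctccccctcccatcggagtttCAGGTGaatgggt

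Cldn18 has 2 annotated starts, and neither of its promoters held the E-box letters. Both promoters are shown because the deposited values list transcripts from each, and the capitals mark CAAGTG, which reads CACTTG on the other strand, the core letters of NKX2 factors, which stood in 13.6% of all promoters. They were found 1 time at the downstream start (chr9:99710044-99710313, - strand) and not in this window of the upstream start (chr9:99717248-99717517, - strand).
Cldn18 upstream: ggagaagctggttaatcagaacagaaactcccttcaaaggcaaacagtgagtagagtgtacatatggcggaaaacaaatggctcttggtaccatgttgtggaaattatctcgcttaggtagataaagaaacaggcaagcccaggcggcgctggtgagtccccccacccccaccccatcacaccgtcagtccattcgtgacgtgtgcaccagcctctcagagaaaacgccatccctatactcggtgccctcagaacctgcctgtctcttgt
Cldn18 downstream: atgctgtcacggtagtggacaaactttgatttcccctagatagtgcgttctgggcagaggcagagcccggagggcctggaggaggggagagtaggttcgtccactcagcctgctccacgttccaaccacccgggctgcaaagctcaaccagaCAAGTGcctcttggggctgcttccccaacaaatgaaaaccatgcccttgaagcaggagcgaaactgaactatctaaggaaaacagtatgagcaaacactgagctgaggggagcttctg

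The libraries held 42711843 to 60773158 alignments each, and values are in RPKM (mapped reads scaled for transcript length and library size), so that levels of different genes can be set side by side. Markers of lung lining were high in the epithelial libraries: the club cell gene Scgb1a1 took 57.7% to 62.9% of the summed RPKM in each epithelial library and at most 0.248% in any other, and the 6 alveolar type 2 genes summed to 1554 to 3286 RPKM there against at most 132.8 elsewhere. These libraries also held 44.4 to 66.4 RPKM of 7 endothelial genes, and leukocyte genes at 729.2 to 1368 RPKM summed over 6 genes. Most of the leukocyte sum was Lyz2, at 658, 1059 and 1301 RPKM in replicates 1 to 3. The sum thus rests mainly on that gene and does not by itself show leukocytes. Chil3 was at 41.0 to 48.1 RPKM, and at 56.9, 33.7 and 43.7 RPKM in lung Il33+ MSC. The WAT endothelial libraries held 6 stromal genes at 1767 to 3659 RPKM, against 4271 to 8945 in the MSC, and replicate 1 of them had 11.02% of genes listed at 0. The part of any other cells in the results below was not tested. Fewer cells of a type and less RNA per cell cannot be told apart in such libraries.

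Each of the 21 epithelial values of the 7 genes lay at 4.42 RPKM or higher, whereas 5 of the 84 values in the other populations reached 1 RPKM and 31 were listed at 0. Cdh1 stood highest in the epithelium, followed by Cldn3 and Cldn18, and Ocln and Cldn7 stood lowest. The plot of levels by library shows the epithelial points clear of all others for every gene.

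**Figure D1:**
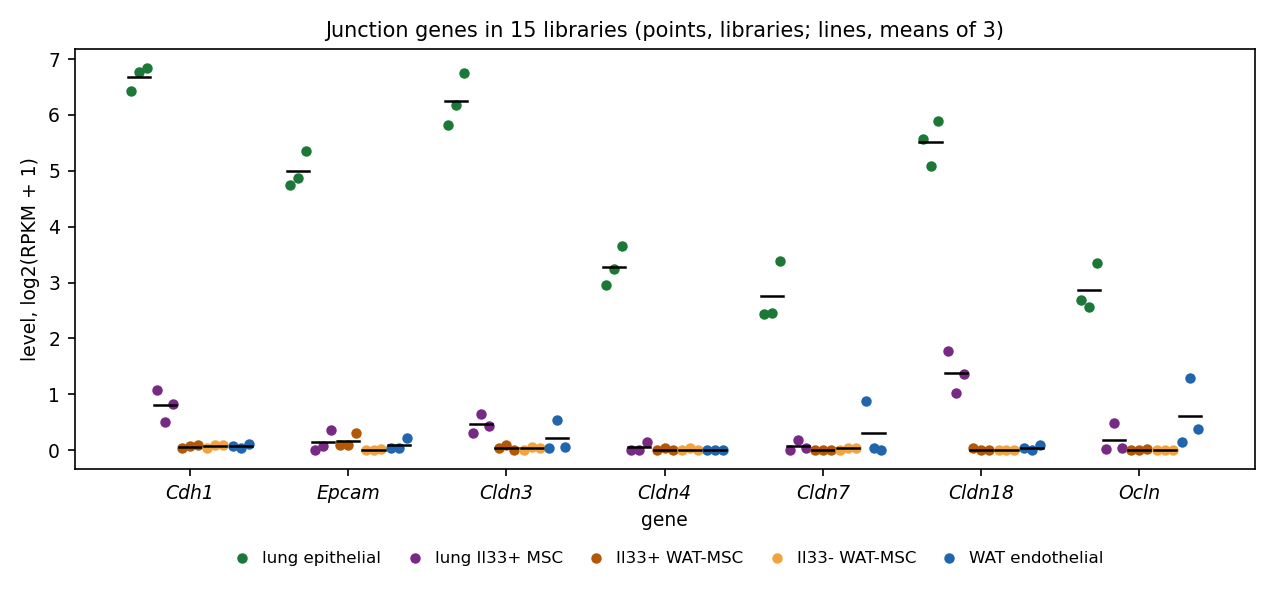
Level of each junction gene, log2(RPKM + 1), in 15 libraries of 5 populations; points are libraries and black lines the mean of 3. The epithelial libraries lie at 4.42 RPKM or more for each gene, and outside them Cldn18 in lung Il33+ MSC (1.03 to 2.42 RPKM) and Ocln in 1 endothelial library (1.45 RPKM) are highest.

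Cdh1, which encodes E-cadherin of the adherens junction, was measured at 85.6, 108 and 113 RPKM in replicates 1 to 3 of the lung epithelial cells. It was at 1.10, 0.42 and 0.77 RPKM in the lung Il33+ MSC, and at 0.02 to 0.08 RPKM in the 9 libraries from WAT. The epithelial mean was 102 ± 14.6 (SD, n = 3), the 111th highest mean of the 10222 genes, and its 3 libraries did not overlap with any other. The lung Il33+ MSC came next in order and did not overlap with the WAT populations, which could not be placed in an order because their libraries overlapped. On the log2(RPKM + 1) scale, which understates the change of genes near 0, Cdh1 was 5.88 ± 0.24 (SE) higher in lung epithelial cells than in lung Il33+ MSC (limma, adjusted p = 7.01e-07), and 6.60 to 6.62 higher than in the 3 WAT populations (limma, largest adjusted p = 9.22e-06).

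Epcam encodes the adhesion protein on which the epithelial cells were sorted, so its difference between populations is set by the gate and is not a finding. Its mRNA was at 25.9, 28.4 and 39.8 RPKM in the epithelial libraries (mean 31.4 ± 7.38, SD, n = 3). Outside them it was at most 0.28 RPKM, in replicate 3 of the lung Il33+ MSC. Within WAT, the Il33+ MSC libraries held it at 0.06, 0.06 and 0.23 RPKM and the Il33- ones at 0, 0 and 0.01 RPKM, without overlap. The mRNA was thus high only in the 3 libraries sorted for the protein.

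The claudins differed widely in level within the epithelium. Cldn3, a barrier-forming claudin of many epithelia, was at 55.3, 71.1 and 106 RPKM (mean 77.5 ± 26.03, SD, n = 3), against 0.24 to 0.57 RPKM in lung Il33+ MSC and at most 0.07 RPKM in WAT-MSC. In WAT endothelial cells Cldn3 was at 0.02, 0.46 and 0.04 RPKM. Its neighbour Cldn4, also a sealing claudin, was at 6.75, 8.42 and 11.6 RPKM, with a mean of 8.92 ± 2.46 (SD, n = 3), and reached 0.11 RPKM at most elsewhere, being listed at 0 in every endothelial library. Both members of this gene pair were thus high in the same libraries, with Cldn3 at the higher level in each of the 3, and outside them neighbouring populations overlapped.

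Cldn7, the claudin that binds EpCAM, was at 4.42, 4.51 and 9.5 RPKM in the epithelium (mean 6.14 ± 2.91, SD, n = 3). It was listed at 0 in each of the Il33+ WAT-MSC libraries and lay at 0.84 RPKM in replicate 1 of the endothelial cells, its highest value outside the epithelium, against 0, 0.13 and 0.03 RPKM in lung Il33+ MSC. Only 1 transcript of Cldn7 was in the table, whereas RefSeq has 2, so its level may be partial. Ocln, encoding occludin, was at 5.44, 4.88 and 9.16 RPKM (mean 6.49 ± 2.33, SD, n = 3) and at 0.11, 1.45 and 0.30 RPKM in the WAT endothelial cells. In lung Il33+ MSC it was at 0.01, 0.40 and 0.03 RPKM, overlapping with the endothelial cells, and in the 6 WAT-MSC libraries at most 0.01 RPKM. The tricellular junction gene Marveld2 was highest in the same endothelial library (0, 1.78 and 0.57 RPKM). The endothelial replicate with 1.45 RPKM of Ocln also held the highest summed leukocyte genes of the 3 (127 RPKM, against 8.25 and 53.1) and 173 RPKM of 8 mesothelial genes (against 52.6 and 212), of which Krt8, Krt18 and Krt19 are also epithelial; their part in it was not tested.

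Cldn18, the claudin of alveolar epithelium, was at 46.3, 33.0 and 58.4 RPKM (mean 45.9 ± 12.7, SD, n = 3) in the lung epithelial cells. In the lung Il33+ MSC it was at 2.42, 1.03 and 1.56 RPKM, the highest of the 7 genes in that population, and in the 9 WAT libraries at most 0.06 RPKM. The lung epithelial cells were followed by lung Il33+ MSC without overlap, and the latter did not overlap with WAT endothelial cells, the next in order.

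As a share of the 5 population means added together, the epithelium held 99.1% of Cdh1, 99.1% of Epcam, 99.2% of Cldn3, 99.4% of Cldn4, 94.4% of Cldn7, 96.4% of Cldn18 and 89.4% of Ocln. Over 10168 genes with a mean of at least 1 RPKM in a population the median share was 16.9%, and 5.02% of them exceeded 90%. The members were named as epithelial genes, so that this position describes them and supports nothing further. The lower share of Ocln came from its endothelial values, and that of Cldn18 from the lung Il33+ MSC.

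The 3 epithelial libraries were not at the same level. Each of the 7 genes was highest in replicate 3, which was the case for 42.6% of 7140 genes expressed in all 3, and after median-ratio scaling of the libraries 5 of the 7 were (27.6% of the 7140). Cdh1 varied least, with a highest over lowest ratio of 1.32 (1.10 after scaling), and Cldn7 most, with 2.15 (2.07 after scaling). The amounts relative to Cdh1 moved as well. Cldn3 stood at 0.646, 0.660 and 0.939 of Cdh1 in replicates 1 to 3, and Cldn18 at 0.541, 0.306 and 0.516. Replicate 2, with the least Cldn18 per Cdh1, had the lowest level of 2 of the 6 alveolar type 2 genes, Lamp3 (42.4 RPKM, against 46.8 and 87.8) and Sftpc (903 RPKM, against 919 and 1925), and not of the other 4, such as Sftpb (285 RPKM, against 250.2 and 555).

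The epithelium was compared with each of the 4 other populations by limma on log2(RPKM + 1) for genes that reached 1 RPKM in 3 or more of the 6 libraries, with an adjusted p under 0.05 as the threshold. The 4 comparisons share the same epithelial libraries. Against lung Il33+ MSC, 7 of 7 members were called higher, where 18.5% of 9352 genes tested were called higher and 24.4% lower. Cldn3 was 5.78 ± 0.28 (SE) higher on the log2 scale, Cldn18 4.13 ± 0.29, Cldn4 3.23 ± 0.28, Cldn7 2.69 ± 0.32 and Ocln 2.68 ± 0.31, and the largest adjusted p of the 7 in limma was 0.000122. The filter was passed through the epithelial libraries alone by 5 members, which so had to differ. The median of the 6 members other than Epcam, which the gate sets, was 3.68, against -0.13 over all genes tested. As most of these 6 had to differ, the median describes them and supports nothing further.

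Against the WAT populations 7 of 7 members were likewise called higher, Epcam included, and without it the median of the other 6 was 4.39 for Il33+ WAT-MSC, 4.39 for Il33- WAT-MSC and 4.38 for WAT endothelial cells. Of all genes tested, 18% were called higher and 23.0% lower against Il33+ WAT-MSC, 18.6% and 23.5% against Il33- WAT-MSC, and 12.8% and 14.9% against endothelial cells. The smallest changes were those of Ocln (2.26 ± 0.44 SE, limma adjusted p = 0.00631) and Cldn7 (2.46 ± 0.44 SE, limma adjusted p = 0.00402) against endothelial cells, and the largest that of Cdh1. The filter was passed through the epithelium alone by 7 of 7 members in the comparisons with WAT-MSC and by 6 of 7 in that with endothelial cells. Cldn7 was listed at 0 in every Il33+ WAT-MSC library, Cldn18 and Ocln in every Il33- WAT-MSC library and Cldn4 in every endothelial library, so their changes there depend on the pseudocount and are not printed. The medians above include these changes, and they too only describe genes that mostly had to differ. Cldn18 had the widest span between comparisons, from 4.13 against lung Il33+ MSC to 5.51 against Il33+ WAT-MSC. Median-ratio scaling moved the share of higher calls among all calls from 43.2% to 55.7% against lung Il33+ MSC, from 44.0% to 58.0% against Il33+ WAT-MSC and from 44.2% to 58.4% against Il33- WAT-MSC, and left each of the 7 members called higher. It moved the median of all genes from -0.13, -0.17 and -0.17 to 0.14, 0.15 and 0.13.

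**Figure D2:**
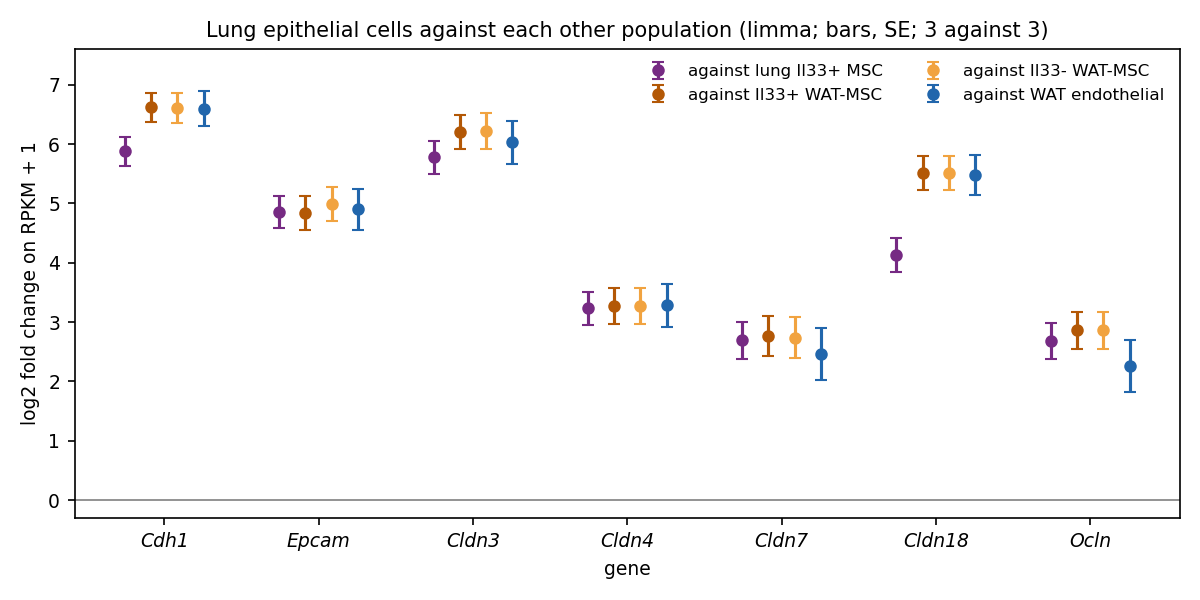
Log2 fold change on RPKM + 1 of each junction gene in lung epithelial cells against the 4 other populations (limma; points are estimates and bars SE, 3 libraries against 3). Cdh1 and Cldn3 have the largest changes, up to 6.62 and 6.22, and Cldn18 is lowest against lung Il33+ MSC (4.13); a gene listed at 0 throughout the other population has a change set by the added 1 RPKM.

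Between the populations without epithelial cells, the question was whether stroma of lung and WAT, Il33+ and Il33- stroma, or stroma and endothelium differed in the low levels that were left. In Il33+ against Il33- WAT-MSC 0 of 7 members reached the filter, in a comparison where 0.923% of genes were called higher and 0.651% lower. Without the filter limma called 0 of 7, and 0 had an unadjusted p under 0.05. The lowest adjusted p was that of Epcam (0.517 in limma). In WAT endothelial cells against Il33+ WAT-MSC (3.34% of genes called higher and 0.565% lower) again 0 of 7 reached the filter, and without it 0 were called and 0 had an unadjusted p under 0.05 in limma. For Ocln the endothelial libraries lay above those of Il33+ WAT-MSC (means of 0.62 and 0.00333 RPKM), with a difference of 0.60 ± 0.29 (SE) on the log2 scale that was not called (limma adjusted p = 0.423). Values this close to 0 are given to 2 decimals with the reads behind them unknown, so that no call does not show equal levels.

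In Il33+ WAT-MSC against lung Il33+ MSC only Cldn18 reached the filter, and it was called lower in WAT by 1.37 ± 0.31 (SE) on the log2 scale (limma adjusted p = 0.0254), where 2.5% of genes were called higher and 3.5% lower. It reached the filter through the 3 lung libraries alone, and so had to differ. The call was lost in 5 of its 13 alternatives: with replicate block (limma adjusted p = 0.058), and without replicate 1 or 3 of lung Il33+ MSC (0.0917 and 0.0749) or replicate 1 or 3 of Il33+ WAT-MSC (0.0746 and 0.0812). Without the filter, Cldn18 was called (limma adjusted p = 0.0167), whereas Cdh1 (a mean of 0.763 RPKM in lung against 0.0433 in WAT, adjusted p = 0.0516) and Cldn3 (0.383 against 0.03 RPKM, adjusted p = 0.0905) missed the threshold in limma and had an unadjusted p under 0.05. For Cdh1, Cldn3 and Cldn18 the 3 lung libraries lay above the 3 from WAT, and for Epcam, Cldn4, Cldn7 and Ocln the libraries overlapped. The share of all genes separated in this way is not given, so nothing is read from the count.

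The lung Il33+ MSC carried other lung lining genes at a low level too, and these values stand beside those of the members. Expressed as a percentage of the epithelial mean, the 7 junction genes in lung Il33+ MSC ranged from 0.351% to 3.64%, with a median of 0.747%. The 3 club cell genes ranged from 0.140% to 0.618% and the 4 ciliated cell genes from 0.744% to 3.24%. The 3 alveolar type 1 genes ranged from 4.25% to 9.38% and the 6 alveolar type 2 genes from 0.928% to 31.5%, the highest being Abca3, which was also at 9.38% to 22.8% in the WAT populations. Values of that size for alveolar type 1 genes were not limited to the lung: in WAT endothelial cells Hopx was at 9.18% and Aqp5 at 7.32%, with Ager at 0.531%. Cldn18 had the largest percentage of the 7. Its order over the 3 libraries (replicate 1 highest, then 3, then 2) was shared by 4 of the 6 alveolar type 2 genes (Lamp3, Sftpa1, Sftpb and Sftpc, not Abca3 or Sftpd) and, among the members, by Cdh1. Of the ciliated cell genes, Rsph1 (4.05, 0.05 and 0.84 RPKM) and Ccdc153 (0.96, 0.46 and 0.95 RPKM) had it too, and Foxj1 and Dynlrb2 did not. The share of all genes with this order is not given, so nothing is read from it. In the WAT populations the medians of the 7 members were 0.0424% in Il33+ WAT-MSC, 0.0258% in Il33- WAT-MSC and 0.223% in endothelial cells. Whether lung lining RNA contributed to the values in lung Il33+ MSC was not tested.

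**Figure D3:**
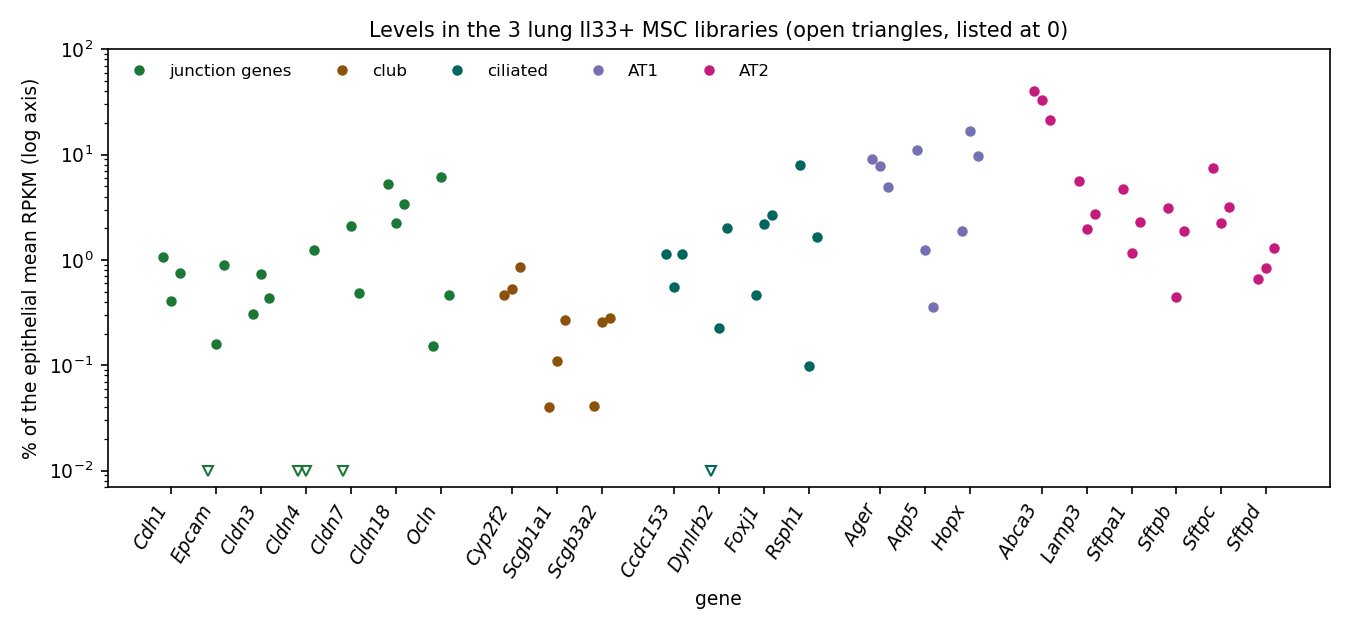
Level of each gene in the 3 lung Il33+ MSC libraries as a percentage of its mean in lung epithelial cells (log axis), for the 7 junction genes and for club, ciliated, alveolar type 1 (AT1) and alveolar type 2 (AT2) genes; open triangles at the bottom are libraries listed at 0. Cldn18 has the highest mean of the 7 junction genes, 3.64%, and Cldn3 lies at 0.310% to 0.735%. Genes of several lining cell types have means near that of Cldn18, among them Lamp3 (AT2, 3.45%), Rsph1 (ciliated, 3.24%) and Aqp5 (AT1, 4.25%).

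Of the 4 listed Cldn18 transcripts, NM_001194921 and NM_001194923 begin at the upstream start (base 99717267) and NM_019815 and NM_001194922 at the downstream one (bases 99710063 and 99710009). In the epithelial libraries NM_001194921 was at 19.1, 11.6 and 22.6 RPKM and NM_001194923 at 15.8, 13.9 and 22.1 RPKM. NM_019815 was at 6.21, 3.43 and 6.91 RPKM and NM_001194922 at 5.17, 4.12 and 6.78 RPKM. The upstream start thus took 75.4%, 77.1% and 76.5% of the Cldn18 value in replicates 1 to 3, and 75.2%, 75.7% and 75.6% in the lung Il33+ MSC. The ratio of upstream to downstream was nearly equal in the pair NM_001194921 and NM_019815 (3.08, 3.38 and 3.27) and the pair NM_001194923 and NM_001194922 (3.06, 3.36 and 3.26) within each library. These transcripts share most exons, and how reads were divided among them is not given in the sources used here, so the share is that of the deposited values. Transcripts of both starts were listed above 0 in each of the 6 lung libraries.

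**Figure D4:**
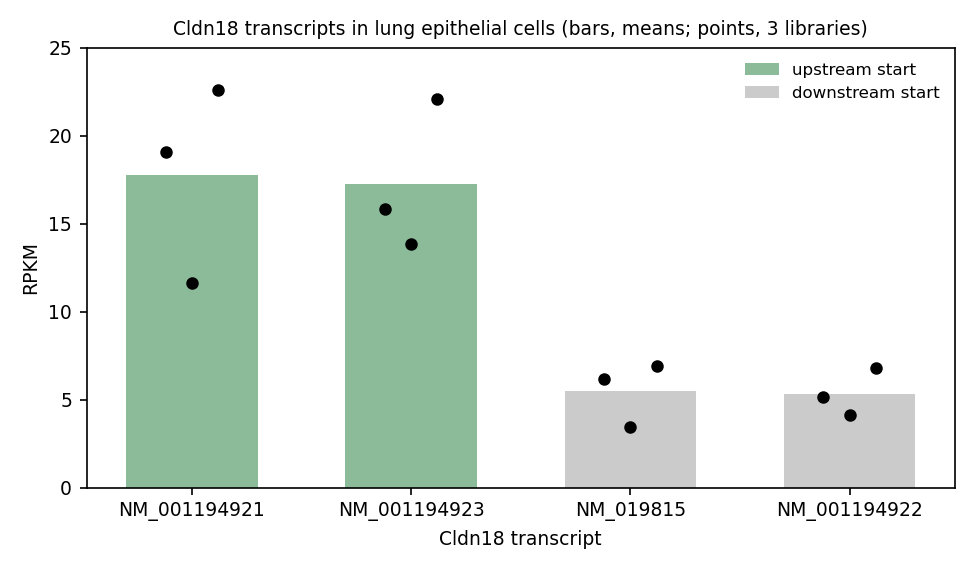
RPKM of the 4 listed Cldn18 transcripts in lung epithelial cells; bars are means and points the 3 libraries, with green for the upstream and grey for the downstream start. Both upstream transcripts lie at 11.6 to 22.6 RPKM and both downstream ones at 3.43 to 6.91 RPKM.

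All 11 claudins in the table were summed to show how much of the claudin mRNA the 4 members made up. In the epithelium they held 81.4% to 87.5% of 165 ± 41.0 RPKM (SD, n = 3), led by Cldn3 (39.9% to 50.1%) and Cldn18 (23.0% to 33.5%), and Cldn10, a channel-forming claudin, was next with 9.47% to 12.7%. In lung Il33+ MSC the 4 members held 5.41% to 14.7% of 23.2 ± 7.67 RPKM (SD, n = 3), behind Cldn1 (mean 7.78 RPKM) and the cation channel claudin Cldn2 (mean 5.21 RPKM). In the WAT populations they held at most 2.84%. Cldn15, another channel-forming claudin, had the highest mean in both WAT-MSC populations but varied between libraries. It was at 2.36, 13.7 and 4.32 RPKM in the Il33+ cells, where Cldn1 was higher in replicate 3 (4.49 RPKM), and at 1.09, 4.28 and 4.88 RPKM in the Il33- cells, where Cldn12 was higher in replicate 1 (1.90 RPKM). Cldn5, the endothelial claudin, had the highest mean in WAT endothelial cells, 20.9 ± 6.34 RPKM (SD, n = 3). Each population therefore had claudin mRNA, with the highest mean that of Cldn3 in the epithelium and of claudins that are no members elsewhere. Of the 7 other claudins, 6 were tested between lung epithelial cells and lung Il33+ MSC: Cldn8 and Cldn10 were called higher and Cldn1 and Cldn2 lower. Of all genes tested, 18.5% were called higher and 24.4% lower. Cldn8 passed the filter through the epithelium alone and Cldn1 through lung Il33+ MSC alone, so both had to differ. Cldn10 was 1.91 ± 0.21 (SE) higher and Cldn1 2.71 ± 0.40 lower on the log2 scale (limma, adjusted p = 7.67e-05 and 0.000457). For Cldn2, whose libraries overlapped, the call was lost in 4 of 14 alternatives.

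Among other cadherins, 5 of 15 were in the table and 5 were called in the comparison of lung epithelial cells with lung Il33+ MSC, 2 higher and 3 lower. Of all genes tested, 18.5% were called higher and 24.4% lower. Cdhr3 passed the filter through the epithelium alone and Cdh4 through lung Il33+ MSC alone, so both had to differ. Cdhr3, a cadherin of ciliated cells, was at 67.8, 56.1 and 49.4 RPKM in the epithelium and at most 0.46 RPKM elsewhere. Cdh11, the cadherin of fibroblasts, was at 36.6, 40.5 and 40.6 RPKM in lung Il33+ MSC and at 5.28, 2.62 and 5.10 RPKM in the epithelium, and fell by 2.96 on the log2 scale (SE 0.26, limma adjusted p = 1.88e-05). Cdh5, the endothelial cadherin, was at 144 to 191 RPKM in WAT endothelial cells and at 16.9 to 33.3 RPKM in lung epithelial cells, where its call (0.82 ± 0.29 SE higher than in lung Il33+ MSC, limma adjusted p = 0.0442) was lost in 6 of 15 alternatives. On the RPKM scale Cdh1 was the highest of the listed cadherins in the epithelium, Cdh11 in lung Il33+ MSC and Cdh5 in endothelial cells, whereas in Il33+ WAT-MSC the libraries of Cdh13 and Cdh11 (11.6, 15.3 and 17.0 RPKM) overlapped.

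The catenins and actin linkers that E-cadherin binds were present in every population. Ctnna1 (α-catenin) had means of 31.2 to 47.2 RPKM and Ctnnd1 (p120-catenin) of 40.9 to 53.5 RPKM over the 5 populations, and neither was called between lung epithelial cells and lung Il33+ MSC (0.21 ± 0.22 and 0.00 ± 0.22 on the log2 scale, limma adjusted p = 0.492 and 0.999), although Ctnna1 was called higher under median-ratio scaling and quantile normalization and Ctnnd1 under the latter. Ctnnb1 (β-catenin) was at 52.9, 80.1 and 82.5 RPKM in the epithelium and 26.5, 38.3 and 29.3 RPKM in lung Il33+ MSC, 1.16 ± 0.25 (SE) higher (limma adjusted p = 0.00407). Of 10 adherens junction partners tested 4 were called higher (Ctnnb1, Jup, Nectin2 and Shroom3) and 2 lower (Vcl and Nectin1), with a median of 0.21 against -0.13 over all genes. Of all genes tested, 18.5% were called higher and 24.4% lower. Nectin2, an immunoglobulin-like adhesion protein of the adherens junction, was 2.38 ± 0.34 (SE) higher (11.6 against 1.51 RPKM, limma adjusted p = 0.000386).

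Of 21 other tight junction genes 11 were called higher and 4 lower in lung epithelial cells than in lung Il33+ MSC, with a median of 1.06, where 18.5% of all genes tested were called higher and 24.4% lower. Lsr and Marveld2, both of tricellular junctions, were 3.20 ± 0.37 and 2.82 ± 0.25 (SE) higher, and F11r, encoding the junctional adhesion molecule JAM-A, 2.72 ± 0.23 (limma, adjusted p = 9.9e-05, 2.1e-05 and 1.37e-05). The filter was passed through the epithelium alone by 7 of the 21 genes, Lsr and Marveld2 among them, which so had to differ. The scaffold Tjp1 (ZO-1) was at 24.1 RPKM in the epithelium and 21.5 RPKM in lung Il33+ MSC and was not called (0.13 ± 0.24, limma adjusted p = 0.697). Jam2, known from endothelium, fell by 2.44 on the log2 scale (17.9 RPKM in lung Il33+ MSC, limma adjusted p = 3.51e-05), and Amotl1 and Ybx3 fell as well, by 1.84 and 1.82. Against WAT endothelial cells, where 12.8% of all genes tested were called higher and 14.9% lower, the balance was different. There 6 of the 21 were called higher and 5 lower, Tjp1 among the latter (62.7 RPKM in endothelial cells). The difference between these 2 counts was not tested.

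Of 6 desmosomal genes 5 were called higher and 0 lower against lung Il33+ MSC (18.5% and 24.4% of all genes tested), and 4 higher and 1 lower against WAT endothelial cells (12.8% and 14.9%). The gene lower there was Pkp4, a plaque protein (16.6 against 35.6 RPKM, -1.05 ± 0.28 SE, limma adjusted p = 0.0244), and Ppl, encoding periplakin, was called in neither. Dsg2, the desmosomal cadherin, was at 25.1, 12.05 and 11.7 RPKM in the epithelium and 0.01 to 0.07 RPKM in lung Il33+ MSC (3.97 ± 0.33 SE higher, limma adjusted p = 1.26e-05), and the plaque genes Dsp and Pkp2 were 3.13 ± 0.28 and 3.00 ± 0.37 higher. Of 8 partners of EpCAM, 7 were called higher and 0 lower. Spint2, an inhibitor of the membrane serine proteases that cleave EpCAM, was at 25.9, 45.9 and 58.7 RPKM and had the largest change (4.86 ± 0.36 SE higher, limma adjusted p = 6.35e-06), followed by Tmprss2 (3.60 ± 0.33) and Spint1 (3.21 ± 0.44). Cd9, a tetraspanin, was not called (19.4 against 12.9 RPKM, 0.52 ± 0.27, limma adjusted p = 0.162). The filter was passed through the epithelium alone by 3 of the 6 desmosomal genes and 7 of the 8 partners, which so had to differ.

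The factors known to favour junction genes were high where the members were high. Of 9 listed factors 8 were tested and 8 were called higher in lung epithelial cells in each of the 4 comparisons, where 18.5%, 18%, 18.6% and 12.8% of all genes were. All but Klf5, 7 of the 8, passed the filter through the epithelium alone in each comparison and so had to differ, and nothing is read from their count. Nkx2-1, the lung lineage factor, was at 36.9, 45.5 and 64.6 RPKM in the epithelium and 0.15 to 0.73 RPKM in lung Il33+ MSC (5.16 ± 0.29 SE higher, limma adjusted p = 1.52e-06). Foxa1, a pioneer factor of endoderm, was at 32.8, 28.9 and 40.4 RPKM, and Ehf, an epithelial ETS factor, at 12.3, 11.6 and 10.1 RPKM. Grhl2, a direct activator of Cdh1 and Cldn4, was lower, at 6.11, 6.52 and 6.78 RPKM, but was at most 0.36 RPKM in other libraries. Klf5 differed from these in being present in stroma and endothelium too, at means of 4.44 to 7.14 RPKM against 42.1 RPKM in the epithelium. Elf3, not tested in that comparison, was at 0.71, 3.07 and 5.69 RPKM in the epithelium and 0.02 RPKM at most elsewhere.

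The repressors had the opposite pattern, 7 of 7 being called lower in lung epithelial cells than in lung Il33+ MSC with a median of -2.60. Of all genes tested, 24.4% were called lower and 18.5% higher, with a median of -0.13. Snai1, Twist1 and Twist2 passed the filter through lung Il33+ MSC alone and so had to differ, and nothing is read from the count. Zeb2 was at 7.32, 5.09 and 5.26 RPKM in the epithelium and 76.0, 69.9 and 62.5 RPKM in lung Il33+ MSC (fell by 3.36, SE 0.22, limma adjusted p = 3e-06). Zeb1 was at 2.92 to 4.10 RPKM against 26.4 to 30.5 RPKM (fell by 2.72, SE 0.22, limma adjusted p = 1.02e-05), and lay between 23.8 and 37.2 RPKM in all WAT libraries, endothelial cells included. Twist2 was at 0, 0 and 0.02 RPKM in the epithelium and 12.01, 8.39 and 8.82 RPKM in lung Il33+ MSC, with 0, 1.43 and 2.75 RPKM in endothelial cells. Snai1 was at 0 to 0.12 RPKM in the epithelium and 2.40 to 11.5 RPKM in lung Il33+ MSC, and the call of Snai2 was lost in 9 of 14 alternatives. Zeb1 and Zeb2 were the most abundant repressors in stroma on the RPKM scale, and neither was absent from the epithelial libraries, which held 90.9 to 177 RPKM of 6 stromal genes.

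**Figure D5:**
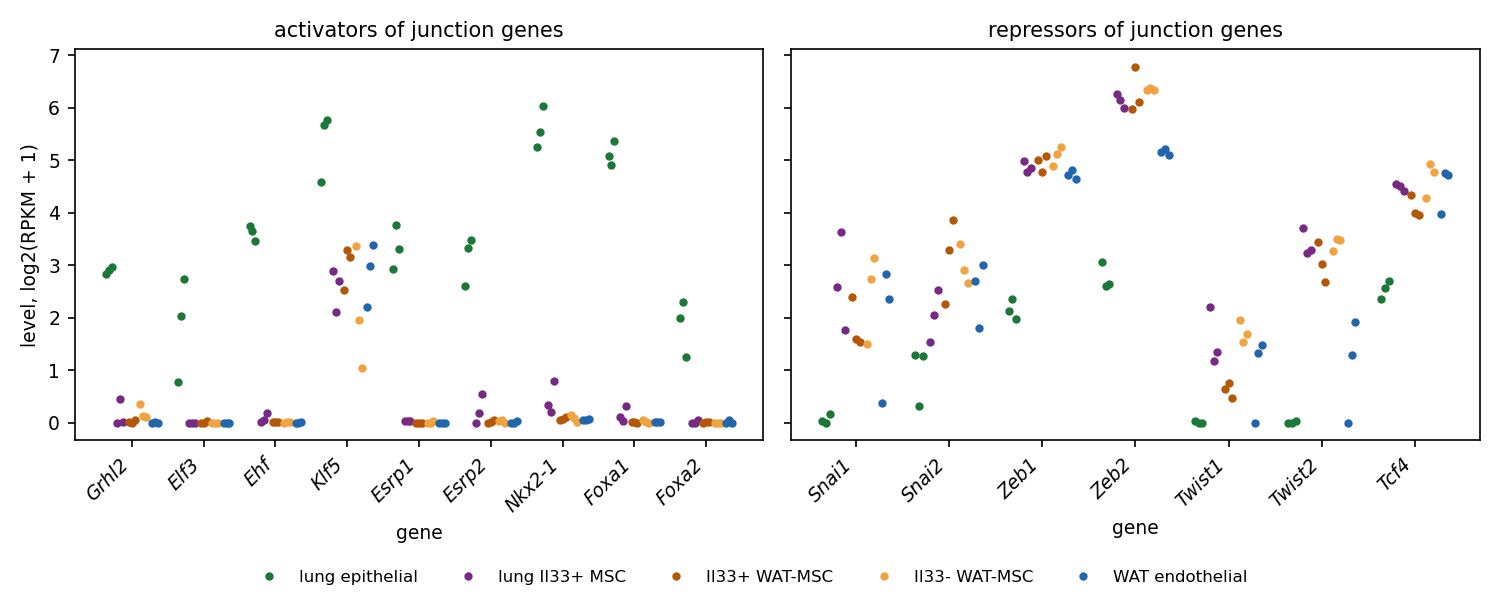
Level, log2(RPKM + 1), of factors known to favour (left) or repress (right) epithelial junction genes; each point is a library, coloured by population. The epithelial points are highest for each activator and lowest for each repressor, except that an endothelial library is also at 0 for Twist1 and Twist2.

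In the comparisons without epithelial cells, the genes called from the 8 lists were 2 of 41 tested between Il33+ and Il33- WAT-MSC (4.88%, against 1.57% of all genes in either direction), 7 of 44 between the Il33+ stroma of WAT and that of lung (15.9%, against 6.0%) and 7 of 47 between WAT endothelial cells and Il33+ WAT-MSC (14.9%, against 3.9%). Cdh13, a cadherin without a transmembrane domain, was at 19.4, 14.3 and 17.9 RPKM in Il33+ WAT-MSC and 7.40, 6.08 and 5.65 RPKM in Il33- WAT-MSC (1.30 ± 0.26 SE higher, limma adjusted p = 0.0321), and Cgnl1, a tight junction scaffold, was at 6.08, 7.51 and 8.81 RPKM against 0.30, 1.93 and 1.80 RPKM (1.93 ± 0.39 SE higher, limma adjusted p = 0.0324). Both calls depended on the setting and were lost in 6 and 8 of 15 alternatives. Il33+ WAT-MSC had more Cdh13, Cldn15 and Magi3 and less Cdh4, Cdh5, Cdh11 and Cldn2 than lung Il33+ MSC, by 2.26, 2.23 and 1.24 and by -1.35, -1.56, -1.38 and -2.23 on the log2 scale (limma, largest adjusted p = 0.0233). Of these, Cdh13 and Cdh11 were called in each of the 15 alternatives, and the others were lost in 1 to 7. Cldn15 passed the filter through the WAT libraries alone, and Cdh4 and Cldn2 through the lung libraries alone. These calls, counted among the 7 of 44, so had to differ. WAT endothelial cells had more Cdh5, Cldn5, Pkp4, F11r, Afdn, Tjp1 and Jam2 than Il33+ WAT-MSC, by 5.17, 3.51, 3.35, 2.51, 1.93, 1.47 and 1.37 (limma, largest adjusted p = 0.0349).

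Over the 15 libraries the 7 members were alike in pattern on the log2(RPKM + 1) scale, with Pearson's r of 0.915 to 0.998 over 21 pairs. The libraries fall into epithelial and other ones, and such an r mostly states that division: between 112 genes (for Ocln) and 494 genes (for Epcam) had an r over 0.95 with a member. The genes most like Cdh1 were Ccdc153, a ciliated cell gene (r = 0.999), Cyp2b10 (0.998) and Slc26a9 (0.998), and those least like it Adamts1 (-0.990), Dpysl3 (-0.983) and the repressor Zeb1 (-0.982). For Epcam they were Slc27a2, Spag6l and Fam92b, for Cldn3 1110017D15Rik, Zmynd10 and Acox2, for Cldn7 Tmem56, Fhdc1 and Klk11, and for Ocln Mal, Pip5k1b and Riiad1. Cldn4 was closest to Kndc1, Tekt1 and the secretoglobin Scgb1c1 (0.999 or higher), and Cldn18 to Lamp3 (0.997), Sftpb (0.995) and Rbm24 (0.995). Lamp3 and Sftpb are genes of alveolar type 2 cells, and among the 7 members it was Cldn18 alone whose 3 nearest genes included any from that list.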

How the data were processed

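Per the labels and the study's methods, sorted cells were lysed, RNA was amplified with the Ovation RNA-seq System V2, and libraries were sequenced on an Illumina HiSeq and aligned with TopHat2 in Partek Flow to mm10; versions, annotation and read assignment are not given in the sources used here. The authors deposited RPKM values with 2 decimals for 12698 RefSeq transcripts of 15 libraries, with 0 value columns left without a sample, and how these transcripts were chosen is not described. RPKM divides by length and mapped reads, so abundant transcripts lower all others in a library. Counts behind the values are unknown, and no counting interval is given.

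RPKM was summed per symbol. limma 3.58.1 in R 4.3.3 (lmFit, eBayes with a trend) was fitted on log2(RPKM + 1) in each of 7 comparisons, 3 libraries against 3, over genes at 1 RPKM or more in at least 3 libraries, with Benjamini-Hochberg adjustment over all genes tested and a threshold of 0.05; the fit was tested on simulated data. An exact permutation test of 3 against 3 cannot go below 0.1 and was not used. Neither labels nor methods say whether replicates came from separate mice, so p-values measure the spread between these libraries, which may be technical. Alternatives were a replicate block, the sequencing lane as a covariate, a single fit of 15 libraries, scaling by median ratios (over 8365 genes), quantile normalization, 0.1 RPKM added in place of 1, all genes tested, a filter of 5 RPKM, the most abundant transcript and each library left out. Named genes were the members, up to 3 called genes with the largest change per list and direction (between lung epithelial cells and lung Il33+ MSC only those whose libraries did not overlap, and in the comparisons without epithelial cells), the factors of the activator and repressor lists, and for each member the 3 genes of highest r and for Cdh1 those of lowest r (10168 genes). Ctnna1, Ctnnb1, Ctnnd1, Cd9, Tjp1, Ppl, Cldn12, alveolar genes, and Cldn2 and Pkp4 in the epithelium, were named after their values were seen. Members and lists were chosen with earlier results of these data known. Promoters, positions and transcript starts came from RefSeq tables of GRCm38.p6 and GENCODE M21 of the same assembly; motifs were searched on both strands. Other calculations used Python 3.11.15 with scipy 1.17.1, pandas 2.3.3 and numpy 2.4.6.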

Additional observations from a re-analysis of the deposited data

How the results depend on the processing

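The 28 fold changes of the members in lung epithelial cells against other populations kept their direction and stayed past the threshold in every alternative run (14 or 15 each), from 2.01 for Ocln against endothelial cells to 9.48 for Cdh1 against Il33+ WAT-MSC with a pseudocount of 0.1. Leaving out a library raised the largest adjusted p (limma) to 0.0316, for Ocln without replicate 3 of the epithelium. The filter was passed through the epithelial libraries alone by 5 members against lung Il33+ MSC and 6 against endothelial cells. Against each WAT-MSC population it was so passed by 7. Those changes had to differ and Epcam is set by the gate, so their staying past the threshold supports nothing further. In Il33+ WAT-MSC against lung Il33+ MSC the number of members called was 1 and became 0 with replicate block, with a filter of 5 RPKM and with the most abundant transcript (the last 2 because Cldn18 was then not tested), and was 0 to 1 when a library was left out. Whether libraries of the same replicate number were paired is not stated, and the main fits used no pairing. The correlation of same-numbered deviations was over 0.1 for every pair in none of the 7 comparisons, with means of -0.03 to 0.11. With 3 libraries in a population such low values cannot exclude a pairing. With replicate block the count of genes called between Il33+ and Il33- WAT-MSC was 232, against 133, and no call of a member other than that of Cldn18 changed. Median-ratio scaling moved the epithelial level of Cdh1 to 118 RPKM. The reads behind a value are unknown, which limits levels below 1 RPKM most.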
